A study of Mus musculus with 12 samples.

Results

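The 37 genes described here carry the steps by which a fat cell makes and stores triglyceride: de novo fatty acid synthesis (9 genes), activation and esterification of fatty acids (17), supply of the glycerol backbone (4) and uptake of fatty acids from outside the cell (7). They were chosen by symbol for these known roles, at a time when earlier results of these data were known. They were matched to the Ensembl mouse identifiers of the expression matrix, which lists 28948 genes, and all 37 had a row. RNA was measured by RNA-seq in 3T3-L1 cells, a mouse embryonic fibroblast-like line that turns into fat cells in culture, in 4 groups of 3 libraries. The groups were cells with an empty vector, cells overexpressing Foxp1, cells with a scrambled short hairpin RNA (shRNA) and cells with an shRNA against Foxp1. Foxp1 is a forkhead transcription factor, and the series concerns its part in aerobic glycolysis in adipocytes and myocytes. All groups were differentiated in the same way, in troglitazone (10 µM), insulin (5 µg/ml), dexamethasone (1 µM) and isobutylmethylxanthine (0.5 mM), then insulin alone from day 4 and growth medium from day 6, so every control carries this treatment too. What separates the libraries of a group (a dish, a transduction or a library preparation) and the species of the overexpressed Foxp1 are not given in the sources used here, so the p-values measure only the spread between these libraries, which may be technical.

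As background, fat cells turn citrate exported from mitochondria into acetyl-CoA, malonyl-CoA and then palmitate, and the genes of this route are driven by the transcription factors SREBP-1c and ChREBP. Fatty acids made inside the cell or taken up through lipoprotein lipase and the carriers Cd36 and the fatty acid transport proteins are bound to CoA. They are then esterified step by step onto glycerol 3-phosphate by the acyltransferases of the GPAT, AGPAT and DGAT families, with the lipins removing the phosphate. White fat cells take the glycerol backbone mainly from glucose or, through the cytosolic phosphoenolpyruvate carboxykinase Pck1, from smaller precursors (glyceroneogenesis).

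Promoter sequence was available for 28 of the 37 genes, as 39 windows of 250 bases ending just before a RefSeq transcription start (GRCm38.p6). Windows are shown for 3 genes that ended at opposite sides of the responses described here: Pck1 and Mlxipl, which were higher with overexpression and lower with knockdown, and Aqp7, which did the reverse. They run 5′ to 3′ on the strand of the gene, and capitals mark a searched motif, where one was found.
Pck1, chr2:173152823-173153072, plus strand: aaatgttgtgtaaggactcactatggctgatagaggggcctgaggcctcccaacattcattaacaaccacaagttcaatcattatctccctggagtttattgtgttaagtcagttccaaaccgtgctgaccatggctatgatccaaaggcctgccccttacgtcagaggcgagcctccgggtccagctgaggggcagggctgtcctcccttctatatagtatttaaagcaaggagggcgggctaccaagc
Mlxipl, upstream start, chr5:135089640-135089889, plus strand: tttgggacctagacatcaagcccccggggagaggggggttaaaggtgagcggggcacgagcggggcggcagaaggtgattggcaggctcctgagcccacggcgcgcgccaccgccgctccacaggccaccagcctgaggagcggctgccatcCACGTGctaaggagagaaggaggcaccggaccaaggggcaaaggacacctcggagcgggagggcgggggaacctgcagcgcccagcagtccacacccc
Mlxipl, downstream start, chr5:135106641-135106890, plus strand: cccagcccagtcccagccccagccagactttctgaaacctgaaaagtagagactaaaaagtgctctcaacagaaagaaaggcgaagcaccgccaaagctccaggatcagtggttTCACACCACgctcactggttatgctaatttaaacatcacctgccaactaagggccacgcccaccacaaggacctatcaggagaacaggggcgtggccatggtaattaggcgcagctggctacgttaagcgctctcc
Aqp7, the more upstream of its starts, chr4:41048137-41048386, minus strand: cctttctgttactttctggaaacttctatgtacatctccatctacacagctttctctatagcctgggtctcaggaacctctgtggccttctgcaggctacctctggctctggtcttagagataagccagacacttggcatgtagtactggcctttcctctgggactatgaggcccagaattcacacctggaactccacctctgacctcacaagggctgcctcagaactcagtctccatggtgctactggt
The capitals in the upstream Mlxipl window are an E-box (CACGTG), 98 to 93 bases before the start, and those in the downstream window are a SREBP site (TCACNCCAC), 136 to 128 bases before it. Mlxipl encodes ChREBP, and as background its upstream start gives the shorter and more active form, ChREBP-beta; the matrix holds 1 value per gene and does not separate the forms. Both strands were searched for 5 motifs. A forkhead core (TGTTTAC) was in 1 of the 39 windows, that of Lpin2, and in 3.17% of all 32851 windows of the table. The E-box was in 5 windows (Gk, Lpin2, Mlxipl, Slc25a1 and Slc27a1; 6.02% of all windows), the SREBP site in 2 (Acsl1 and Mlxipl; 1.05%). Neither the PPAR element (0.0335% of all windows) nor the C/EBP site (TTGCGCAA, 0.164%) was in any of the 39. None of the 5 motifs was in the Pck1 and Aqp7 windows shown. These are matches of letters in short windows and were not tested against the responses.

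The targeted gene followed its labels. Foxp1 stood at 1.83, 1.76 and 1.82 RPKM with empty vector, 5.78, 7.16 and 6.75 with overexpression, 2.23, 2.199 and 2.11 with scrambled shRNA and 1.11, 1.14 and 1.07 with Foxp1 shRNA. RPKM is the number of reads on a gene divided by its exon length and by the library's depth. Foxp1 was 3.64 times as high with overexpression as with empty vector, a difference in log2(RPKM + 1) of 1.43 (SE 0.058, adjusted p = 1.19e-09), and 0.508 of the scrambled level with the shRNA, a difference of -0.59 (SE 0.058, adjusted p = 7.4e-06). Depths worked out from the deposited values and exon lengths, not counted directly, were 35252016 to 38449998 assigned reads a library. Overexpression replicate 3 stood apart, with 13.1% of its reads from the mitochondrial genome beside 9.99% and 9.65% in replicates 1 and 2, so results that rest on it are also given without it. The cells carried fat cell markers: Adipoq, the adipokine adiponectin, was at 1948 ± 17 RPKM with empty vector, 438 ± 17 with overexpression, 910.2 ± 34 with scrambled shRNA and 1416 ± 64 with Foxp1 shRNA (SD, n = 3 each). None of the endothelial markers reached 1 RPKM in 3 libraries. The macrophage list summed to 4.65 to 7.62 RPKM over all libraries: Ptprc, Adgre1, Itgam and Mrc1 were under 0.1 RPKM in each, while Cd68 was at 2.88 to 5.93 and Cd14 at 1.07 to 3.21. Ckm and Myog of muscle and Ttr, Serpina1a and Cyp3a11 of hepatocytes were under 0.1 RPKM in each library, and Mb and Apoc3 of these lists, which were higher, are given beside the fat cell markers.

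Of the 37 genes, 36 were tested and 35 of these were at 1 RPKM or more in all 12 libraries. The exception among those tested was Mlxipl, at 1 RPKM or more in 11. Gpihbp1, the endothelial protein that anchors lipoprotein lipase to the capillary wall, was too low to test, at 0.175, 0.234 and 0.1999 RPKM with empty vector and no more than 0.469 in any library. By RPKM, Lpl and Fabp4 were highest, with means of 1095 and 1340 over the 12 libraries, followed by Agpat2, Gpd1, Cd36, Acsl1 and Slc25a1. The tested gene with the lowest RPKM was Lpin3, at 1.91. These ranks depend on the annotated exon lengths.

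**Figure D1:**
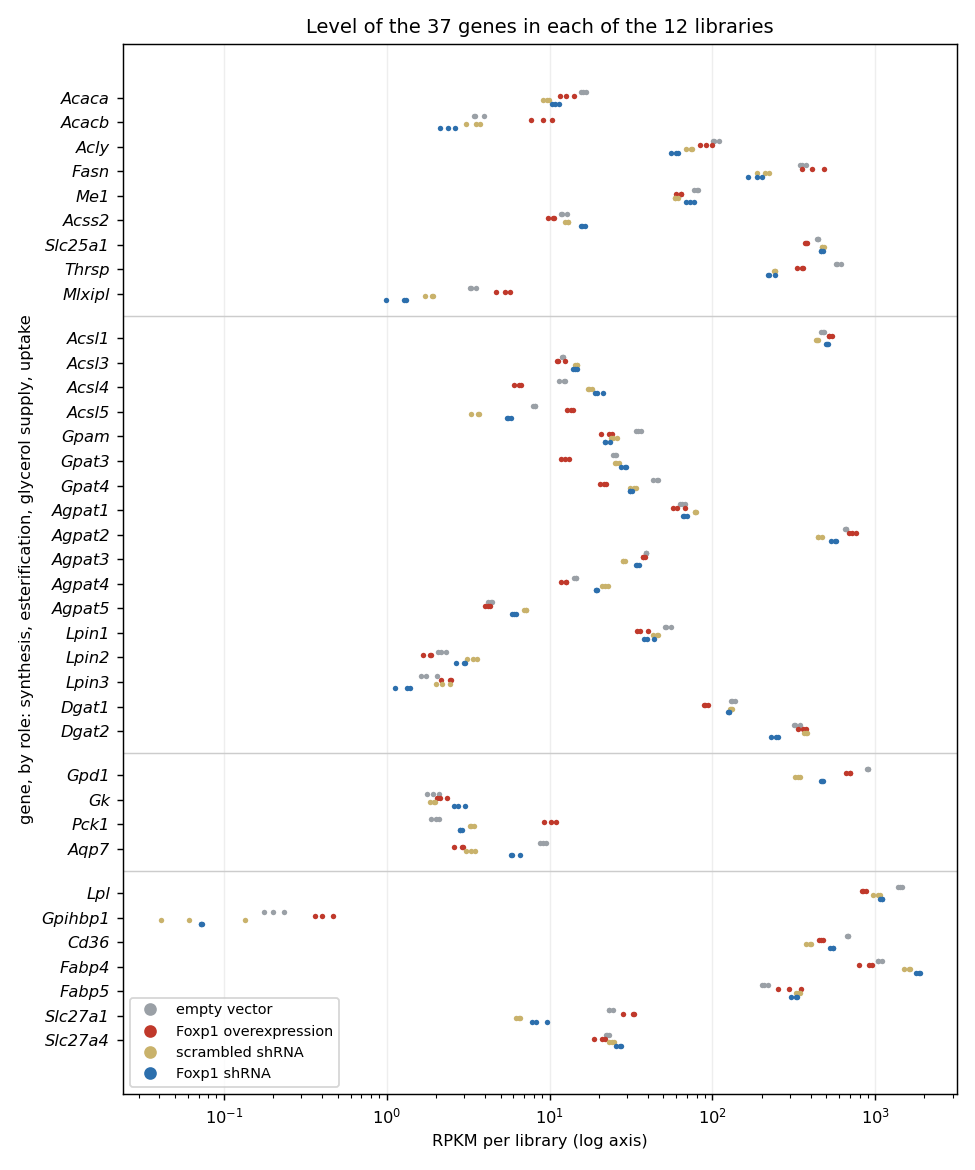
RPKM of the 37 genes in each of the 12 libraries on a log axis, 1 point per library, coloured by group, with genes set out by role. Lpl and Fabp4 lie highest and Gpihbp1 is the only gene whose points all lie below 1 RPKM. Pck1, Acacb, Acsl5, Aqp7 and Slc27a1 show groups that are far apart.

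With overexpression, more of these genes fell than rose: 20 of 36 were lower and 9 higher than with empty vector at an adjusted p under 0.05 (limma), and 7 did not pass. Over all 11245 genes tested, 51.4% passed, 31.0% as higher and 20.3% as lower. Scaled as TPM, the whole-matrix split was 2731 higher and 2872 lower in place of 3490 and 2285, and the split of the 36 genes was 8 higher and 20 lower. The median difference of the 36 genes was -0.18 on log2(RPKM + 1), beside 0.04 for all genes. Without overexpression replicate 3, 19 were lower and 11 higher. With knockdown, 16 of 36 were higher and 10 lower than with scrambled shRNA, against 49.7% of all genes called, 18.7% as higher and 31.0% as lower. With quantile normalization the whole-matrix split was 2656 higher and 2898 lower in place of 2100 and 3487, and that of the 36 genes 16 and 9. As TPM, all genes split 1822 higher and 3949 lower and the 36 genes 11 higher and 10 lower, the calls on Acaca, Acsl4, Gpat3, Fabp4 and Slc27a4 being lost (adjusted p 0.0638 to 0.192). Without Foxp1 shRNA replicate 2, 12 were higher and 12 lower. So the excess of higher over lower genes in knockdown depended on the scaling and on 1 library. The median of the 36 was -0.020, beside -0.042 for all genes.

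Calls in opposite directions were made for 14 of the 36 genes, beside 18.1% of all genes tested. Acaca, Me1, Acss2, Acsl4, Gpat3, Gpd1, Aqp7, Cd36, Fabp4 and Slc27a4 were lower with overexpression and higher with knockdown; over all genes 6.00% followed this pattern. Acacb, Mlxipl, Lpin3 and Pck1 did the reverse, as did 12.1% of all genes. Acsl1, Acsl5, Agpat2 and Slc27a1 were higher in both, as were 4.72% of all genes, and Acly, Agpat4 and Lpin2 lower in both, as were 5.79%. The overexpression and knockdown comparisons share no libraries, and the difference between the responses was tested directly: it passed for 27 of 36 genes, 7 with the higher and 20 with the lower response to overexpression. Over all genes 54.9% passed, 34.6% higher and 20.3% lower, and with quantile normalization 3083 were higher and 2994 lower in place of 3888 and 2285.

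**Figure D2:**
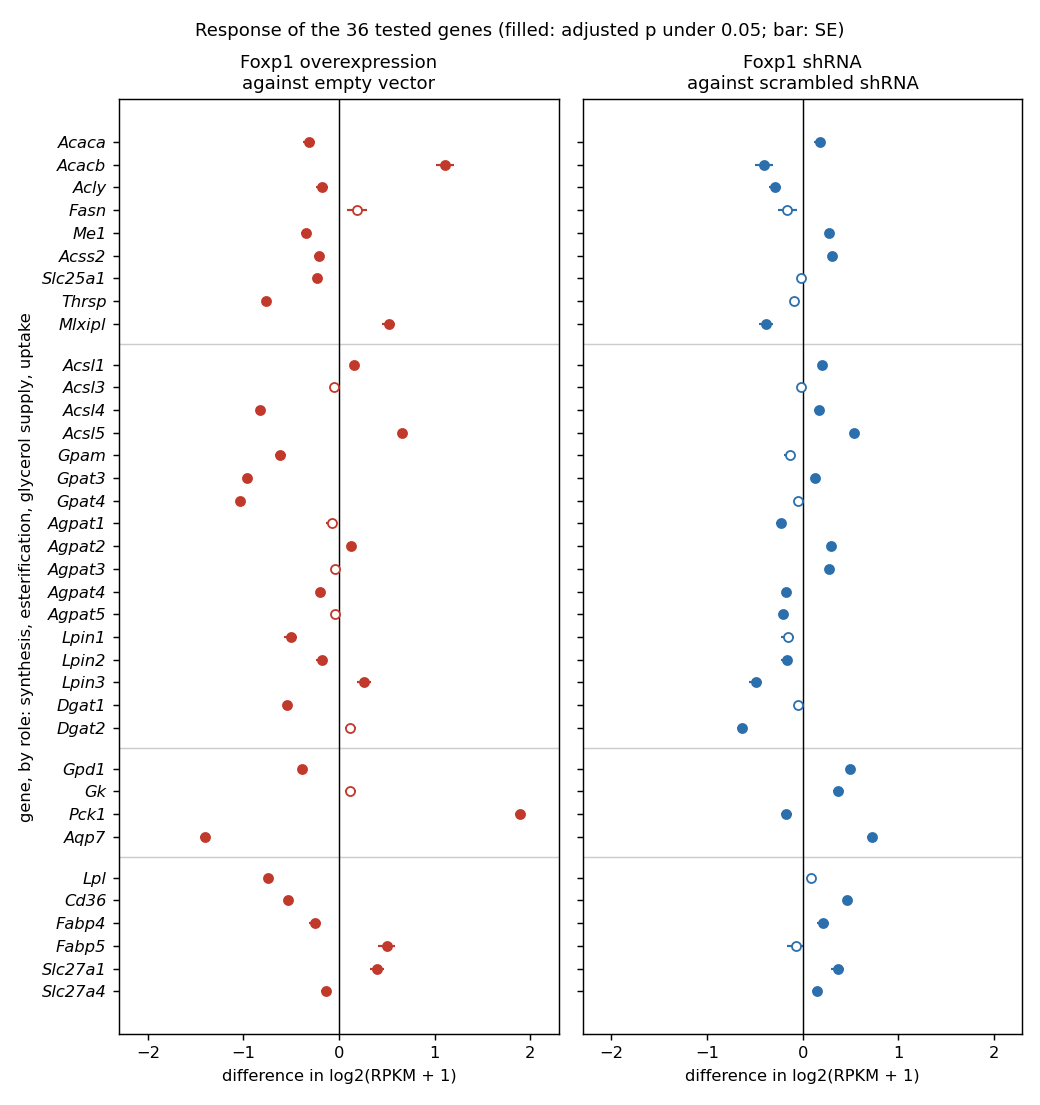
Difference in log2(RPKM + 1) for each of the 36 tested genes, overexpression against empty vector on the left and Foxp1 shRNA against scrambled shRNA on the right, with bars for the standard error and filled points for adjusted p under 0.05. Pck1 lies farthest right and Aqp7 farthest left under overexpression, and both lie on the other side of 0 under knockdown.

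Fat cell markers moved in the same comparisons. Of 10 adipocyte markers, 9 were tested, and all 9 (Pparg and Cebpa among them) fell with overexpression, while 6 rose and 3 fell with knockdown, beside 20.3% of all genes lower with overexpression and 18.7% higher and 31.0% lower with knockdown. Their summed level was 8524 to 8694 RPKM with empty vector, 3130 to 3188 with overexpression, 5321 to 5413 with scrambled shRNA and 7684 to 8317 with Foxp1 shRNA. With knockdown Cidec rose most within this sum, from 2294 ± 42 to 3961 ± 166 RPKM. The 3 that fell with knockdown were Pparg, Cebpa and Retn, the last from 268 ± 10 to 228 ± 17 RPKM. Plin1, the coat protein of the lipid droplet, changed by -0.37 (SE 0.034, adjusted p = 1.75e-06) with overexpression and 0.20 (SE 0.034, adjusted p = 0.000388) with knockdown. Cidec, which enlarges droplets, changed by -1.44 (SE 0.045, adjusted p = 1.36e-10) and 0.79 (SE 0.045, adjusted p = 1.42e-07). The 7 of 10 preadipocyte markers that reached the level for testing split 4 up and 2 down with overexpression. Of all genes, 31.0% were higher and 20.3% lower with overexpression. The preadipocyte list summed to 112 to 125 RPKM with empty vector and 126 to 133 with overexpression. In knockdown 1 rose and 2 fell, the sums being 145 to 164 RPKM with scrambled shRNA and 128 to 143 with Foxp1 shRNA. Summed levels of the muscle list were 1.47 to 1.69 RPKM with empty vector and 2.71 to 3.89 with overexpression, and 1.02 to 1.17 and 0.859 to 1.06 with scrambled and Foxp1 shRNA. Its 1 tested gene, Mb, which encodes myoglobin, reached 1 RPKM only with overexpression (2.06 to 3.06 RPKM). The sums of the hepatocyte list were 13.8 to 15.1 RPKM with empty vector, 23.2 to 26 with overexpression, 9.86 to 10.7 with scrambled and 7.22 to 8.32 with Foxp1 shRNA, nearly all from Apoc3, an apolipoprotein (0.73 (SE 0.058, adjusted p = 4.74e-07) and -0.38 (SE 0.058, adjusted p = 0.000192)). In the macrophage list, Cd14 was lower with overexpression (-0.66 (SE 0.1, adjusted p = 0.000161)) and Cd68 with knockdown (-0.32 (SE 0.12, adjusted p = 0.046)). In these bulk samples, fewer fat cells and less RNA per fat cell cannot be told apart, and the part of the markers in the results on single genes was not tested.

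Within de novo synthesis, 6 of 9 genes fell and 2 rose with overexpression (20.3% and 31.0% of all genes), and 3 rose and 3 fell with knockdown (18.7% and 31.0% of all genes). The pair of acetyl-CoA carboxylases moved apart. Acacb (chr5:114146535-114250761), the mitochondrial isoform whose malonyl-CoA restrains fatty acid oxidation, stood at 3.47, 3.93 and 3.46 RPKM with empty vector, 9.07, 10.3 and 7.71 with overexpression, 3.56, 3.77 and 3.08 with scrambled shRNA and 2.12, 2.62 and 2.396 with Foxp1 shRNA. Every overexpressing library lay above every empty vector library, and every Foxp1 shRNA library below every scrambled one. The differences were 1.11 (SE 0.091, adjusted p = 6.29e-07) with overexpression, a 2.49-fold rise in mean RPKM, and -0.40 (SE 0.091, adjusted p = 0.00308) with knockdown. Acaca (chr11:84129672-84401651), the cytosolic isoform that supplies malonyl-CoA for synthesis, stood at 15.7, 16.6 and 15.96 RPKM with empty vector, 12.7, 14.03 and 11.7 with overexpression, 9.62, 9.86 and 9.07 with scrambled shRNA and 10.4, 11.5 and 10.8 with Foxp1 shRNA. It did the reverse of Acacb without overlap, by -0.31 (SE 0.059, adjusted p = 0.000827) and 0.18 (SE 0.059, adjusted p = 0.0259). The knockdown call on Acaca was lost when scrambled replicate 1 or 3 or Foxp1 shRNA replicate 2 or 3 was left out (adjusted p 0.0529 to 0.0948), with no filter on low values or as TPM (0.0701 and 0.146). Acacb kept both calls under every filter, scaling and test tried and without any 1 library.

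Fasn, the synthase that makes palmitate, was called in neither comparison. Its libraries stood at 346, 378 and 357 RPKM with empty vector, 407, 482 and 354 with overexpression, 209, 223 and 188 with scrambled shRNA and 166, 200.4 and 189 with Foxp1 shRNA. Treated and control libraries overlapped in both comparisons, and neither difference passed, at 0.19 (SE 0.1, adjusted p = 0.143) and -0.16 (SE 0.1, adjusted p = 0.224). Without overexpression replicate 3, the lowest of its group, Fasn passed as higher with overexpression (adjusted p = 0.0166). Its largest difference was between the controls, 359.9 ± 16 RPKM with empty vector and 207 ± 18 with scrambled shRNA.

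Thrsp (chr7:97412938-97417730), a regulator of lipogenesis also called Spot 14, was the synthesis gene that fell most with overexpression. It stood at 575, 614 and 582 RPKM with empty vector, 354, 360.0 and 331 with overexpression, 244, 242 and 239 with scrambled shRNA and 219, 222 and 240.3 with Foxp1 shRNA. The groups did not overlap in overexpression, a fall of 0.76 on the log2 scale (SE 0.047, adjusted p = 4.8e-08), and overlapped in knockdown (-0.089 (SE 0.047, adjusted p = 0.137)). The knockdown difference passed when Foxp1 shRNA replicate 3, its highest library, was left out (adjusted p = 0.0469). Mlxipl (chr5:135089890-135138382), which encodes ChREBP, was low throughout, at 3.52, 3.23 and 3.27 RPKM with empty vector, 4.698, 5.31 and 5.69 with overexpression, 1.73, 1.94 and 1.89 with scrambled shRNA and 0.987, 1.28 and 1.31 with Foxp1 shRNA. All overexpressing libraries were above the empty vector ones and all Foxp1 shRNA libraries below the scrambled ones, with differences of 0.52 (SE 0.069, adjusted p = 4.91e-05) and -0.38 (SE 0.069, adjusted p = 0.000696). These values rest on 205 to 1159 reads a library.

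The remaining synthesis genes supply carbon and reducing power. Me1, the malic enzyme that makes NADPH, stood at 81.2, 80.1 and 77.4 RPKM with empty vector, 63.7, 63.8 and 59.3 with overexpression, 61.5, 58.6 and 58.9 with scrambled shRNA and 72.8, 76.6 and 68.3 with Foxp1 shRNA. It was lower with overexpression and higher with knockdown, without overlap, by -0.35 (SE 0.046, adjusted p = 4.82e-05) and 0.28 (SE 0.046, adjusted p = 0.000399). Acss2, the cytosolic acetyl-CoA synthetase, stood at 11.8, 12.7 and 11.9 RPKM with empty vector, 10.6, 10.5 and 9.81 with overexpression, 12.97, 13.01 and 12.4 with scrambled shRNA and 15.7, 15.8 and 16.6 with Foxp1 shRNA. It moved the same way as Me1, by -0.21 (SE 0.042, adjusted p = 0.00114) and 0.30 (SE 0.042, adjusted p = 0.000102). Acly, which cuts citrate into acetyl-CoA, was lower in both comparisons, from 104 ± 4.5 to 91.9 ± 7.9 RPKM and from 72.3 ± 2.9 to 58.9 ± 3.2. Its overexpression call (adjusted p = 0.033) was lost when empty vector replicate 1 or 2 or overexpression replicate 1 or 3 was left out (0.0564 to 0.125), with no filter on low values and with only the libraries compared in the fit (0.069 to 0.08). Slc25a1, the mitochondrial citrate exporter, was lower with overexpression (-0.23 (SE 0.032, adjusted p = 6.51e-05)) and gave -0.020 (SE 0.032, adjusted p = 0.638) with knockdown, which passed as lower only with quantile normalization (adjusted p = 0.0317). Summed over the 9 genes, the level was 1611 ± 42 RPKM with empty vector, 1330 ± 95 with overexpression, 1082 ± 27 with scrambled shRNA and 1043 ± 32 with Foxp1 shRNA, Slc25a1, Thrsp and Fasn being the bulk of each sum.

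**Figure D3:**
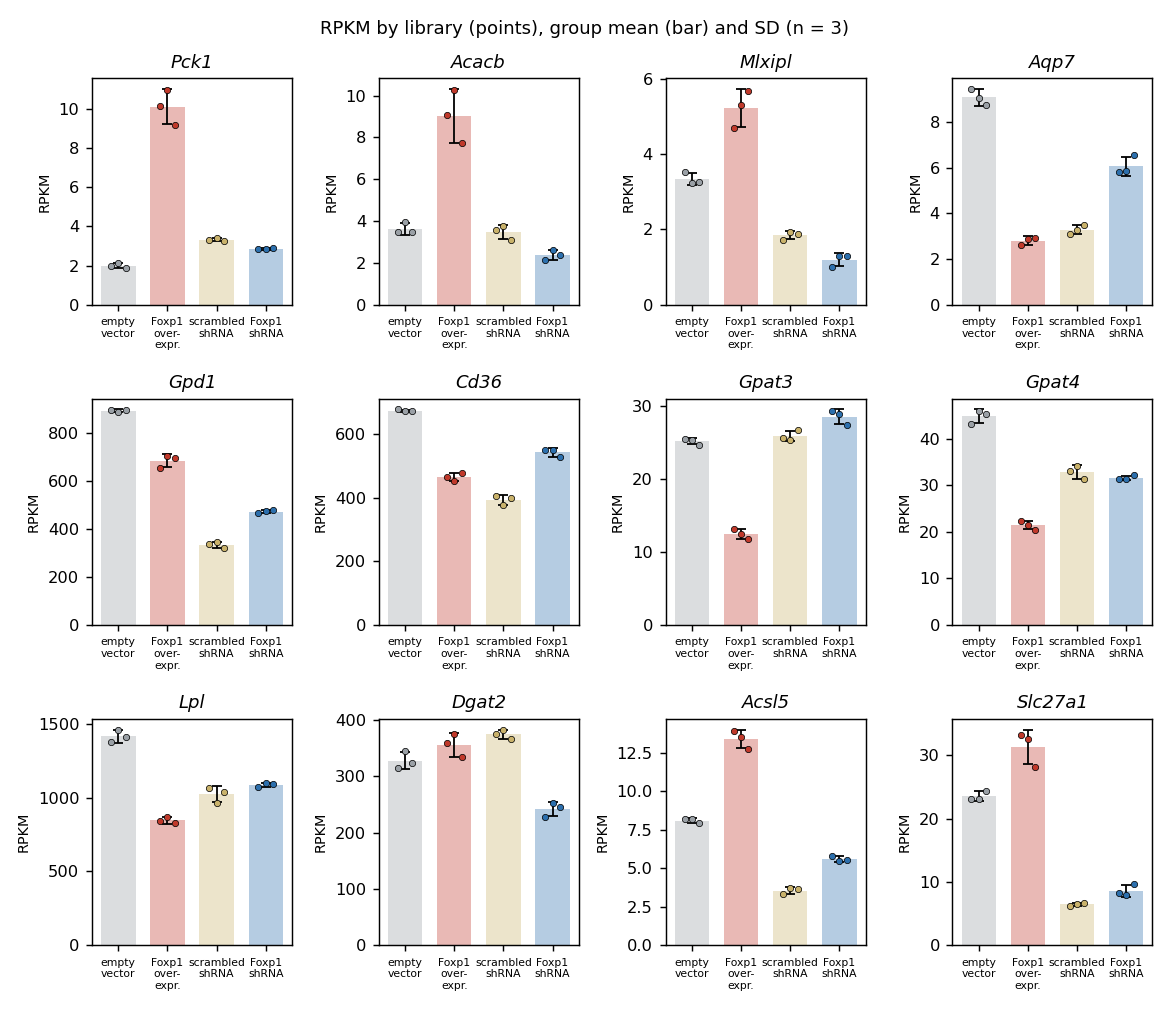
RPKM of 12 of the genes in each library (points), with the group mean (bar, from 0) and SD over 3 libraries (error bar). Pck1, Acacb and Mlxipl are highest with overexpression, Aqp7, Gpd1 and Cd36 are lower with overexpression and higher with Foxp1 shRNA than in the matching control, and Dgat2 is lowest with Foxp1 shRNA.

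In activation and esterification, 8 of 17 genes fell and 4 rose with overexpression, and 6 rose and 6 fell with knockdown. Over all genes these shares were 20.3% and 31.0% with overexpression and 18.7% and 31.0% with knockdown. Summed over the 17 genes, the level was 1909 ± 25 RPKM with empty vector and 1939 ± 57 with overexpression. With scrambled and Foxp1 shRNA it was 1700 ± 2.5 and 1723 ± 10 RPKM. Acsl1, Agpat2 and Dgat2 were the bulk of each sum, so the count of genes that fell does not describe the summed level. The glycerol-3-phosphate acyltransferases, which add the first fatty acid to the backbone, all 3 fell with overexpression. Gpat4 (chr8:23171265-23208346), an isoform of the endoplasmic reticulum, stood at 43.3, 46.02 and 45.4 RPKM with empty vector, 22.2, 21.5 and 20.5 with overexpression, 33.1, 34.2 and 31.3 with scrambled shRNA and 31.4, 31.3 and 32.2 with Foxp1 shRNA. Overexpressing libraries were all below the empty vector ones, a fall of 1.03 on the log2 scale (SE 0.042, adjusted p = 1.2e-09), while the shRNA groups overlapped (-0.053 (SE 0.042, adjusted p = 0.324)). Gpat3 (chr5:100845713-100899102), the isoform induced in fat cell differentiation, stood at 25.5, 25.3 and 24.6 RPKM with empty vector, 13.1, 12.4 and 11.8 with overexpression, 25.6, 25.3 and 26.6 with scrambled shRNA and 29.3, 28.8 and 27.3 with Foxp1 shRNA. It fell by 0.96 with overexpression (SE 0.043, adjusted p = 2.4e-09) and rose by 0.13 with knockdown (SE 0.043, adjusted p = 0.0199). Gpat3 shares 37.4% of its exon bases with other annotated genes, partly on the opposite strand, and the strand setting of the counting is not given in the sources used here, so its value is less certain than the others. The Gpat3 knockdown call was lost when scrambled replicate 1 or 2 or Foxp1 shRNA replicate 1 or 2 was left out (adjusted p 0.0551 to 0.0746) and as TPM (0.131).

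Gpam, the mitochondrial isoform, stood at 33.8, 36.2 and 34.8 RPKM with empty vector, 23.01, 24.01 and 20.6 with overexpression, 24.4, 25.9 and 23.8 with scrambled shRNA and 21.9, 23.6 and 21.8 with Foxp1 shRNA. Its differences were -0.61 (SE 0.056, adjusted p = 1.72e-06) with overexpression, without overlap, and -0.13 (SE 0.056, adjusted p = 0.0658) with knockdown, where the groups did not overlap either but the test was not passed. The knockdown difference passed without overexpression replicate 3 or without Foxp1 shRNA replicate 2 (adjusted p 0.019 to 0.0393), and also with only the shRNA libraries in the fit, with the replicate block and with voom (0.0172 to 0.047). Summed over the 3 isoforms, the level was 105 ± 2.5 RPKM with empty vector and 56.4 ± 3.1 with overexpression, and 83.4 ± 1.8 and 82.5 ± 1.2 with scrambled and Foxp1 shRNA.

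The last step, the transfer of the third fatty acid, is made by Dgat1 and Dgat2, which share no sequence family. Each was called in a different comparison. Dgat1 (chr15:76502015-76511953) stood at 137, 133 and 129.5 RPKM with empty vector, 94.04, 90.1 and 89.2 with overexpression, 131, 132 and 129 with scrambled shRNA and 127, 126 and 124 with Foxp1 shRNA. It was lower in every overexpressing library, by -0.54 (SE 0.034, adjusted p = 5.43e-08). With knockdown it gave -0.052 (SE 0.034, adjusted p = 0.23), where the groups did not overlap either but the test was not passed. Dgat2 (chr7:99153658-99182719), linked to fatty acids newly made in the cell, stood at 315, 344 and 323 RPKM with empty vector, 359, 375 and 333 with overexpression, 376, 382 and 366 with scrambled shRNA and 228, 252 and 245 with Foxp1 shRNA. It was lower in every Foxp1 shRNA library than in any scrambled one, by -0.63 (SE 0.054, adjusted p = 2.89e-06), and gave 0.12 (SE 0.054, adjusted p = 0.082) with overexpression, where groups overlapped. Without overexpression replicate 3, Dgat2 passed as higher with overexpression (adjusted p = 0.0147), as it did rescaled outside the mitochondrial genome and with the replicate block (0.0399 and 0.0427). The difference between the responses passed for both genes, at -0.49 (SE 0.048, adjusted p = 3.7e-06) for Dgat1 and 0.75 (SE 0.076, adjusted p = 4.69e-06) for Dgat2, in opposite directions.

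Among the acyl-CoA synthetases, which activate fatty acids, Acsl1 was by far the most abundant, at 473 ± 10 RPKM with empty vector. It was slightly higher with overexpression (0.15 (SE 0.036, adjusted p = 0.00374)) and with knockdown (0.20 (SE 0.036, adjusted p = 0.000629)). The overexpression call was lost as TPM or with quantile normalization (adjusted p 0.0934 and 0.315). Acsl4 (chrX:142317993-142390535), which prefers arachidonic acid, stood at 12.3, 12.4 and 11.4 RPKM with empty vector, 6.63, 6.49 and 6.01 with overexpression, 17.5, 17.2 and 18.3 with scrambled shRNA and 19.6, 21.4 and 19.01 with Foxp1 shRNA. All overexpressing libraries were below the empty vector ones, with differences of -0.82 (SE 0.05, adjusted p = 4.29e-08) and, in knockdown, 0.17 (SE 0.05, adjusted p = 0.0156). The knockdown call on Acsl4 was lost without scrambled replicate 2 or Foxp1 shRNA replicate 2 (adjusted p 0.0576 to 0.0654) and as TPM (0.104). Acsl5 (chr19:55251938-55297720) stood at 8.18, 8.18 and 7.902 RPKM with empty vector, 13.9, 13.5 and 12.7 with overexpression, 3.297, 3.69 and 3.63 with scrambled shRNA and 5.79, 5.46 and 5.53 with Foxp1 shRNA. It was higher in both comparisons without overlap, by 0.66 (SE 0.044, adjusted p = 9.23e-08) and 0.54 (SE 0.044, adjusted p = 2.11e-06), from control levels that themselves differed. Acsl3, a synthetase of the endoplasmic reticulum and lipid droplets, passed in neither (12.01 ± 0.024 and 11.6 ± 0.72 RPKM with empty vector and overexpression, 14.6 ± 0.19 and 14.3 ± 0.38 with scrambled and Foxp1 shRNA). It passed as lower without overexpression replicate 2 (adjusted p = 0.0422).

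The AGPATs, which add the second fatty acid, changed little with overexpression: their differences lay between -0.20 (Agpat4) and 0.13 (Agpat2), and only these passed. In knockdown all 5 passed, Agpat2 (0.30 (SE 0.046, adjusted p = 0.000185)) and Agpat3 (0.27 (SE 0.032, adjusted p = 2.57e-05)) as higher and Agpat1 (-0.22 (SE 0.055, adjusted p = 0.00518)), Agpat4 (-0.17 (SE 0.04, adjusted p = 0.00324)) and Agpat5 (-0.20 (SE 0.038, adjusted p = 0.000806)) as lower. Of all genes tested, 51.4% passed with overexpression and 49.7% with knockdown. Agpat2, the isoform whose loss causes lipodystrophy, was the main one, at 452 ± 14 RPKM with scrambled and 557 ± 20 with Foxp1 shRNA. Its overexpression call was lost without any 1 of the empty vector libraries or without overexpression replicate 1 or 2 (adjusted p 0.058 to 0.124). It was also lost in 5 other settings, among them TPM and median-ratio scaling (0.0808 to 0.239). Agpat1 passed as lower with overexpression only without replicate 3 (adjusted p = 0.00738), Agpat3 only with median-ratio scaling (0.0478) and Agpat5 only with quantile normalization (0.0305). Agpat5 shares 18.9% of its exon bases with an antisense gene.

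The lipins remove the phosphate before the last transfer. Lpin1 (chr12:16535669-16610966), the main one in fat, stood at 51, 55.8 and 51.6 RPKM with empty vector, 34.6, 40.2 and 35.9 with overexpression, 45.5, 46.3 and 43.3 with scrambled shRNA and 37.8, 43.7 and 39.5 with Foxp1 shRNA. It was lower with overexpression without overlap, by -0.51 (SE 0.064, adjusted p = 2.95e-05), while the shRNA groups overlapped (-0.16 (SE 0.064, adjusted p = 0.0569)). The knockdown difference passed without overexpression replicate 1 or 2 or Foxp1 shRNA replicate 2 (adjusted p 0.0159 to 0.0472), and also with only the shRNA libraries in the fit, with the replicate block and with voom (0.00785 to 0.0389). Lpin3 stood at 1.73, 2.03 and 1.63 RPKM with empty vector, 2.47, 2.43 and 2.15 with overexpression, 2.17, 2.44 and 2.001 with scrambled shRNA and 1.33, 1.38 and 1.13 with Foxp1 shRNA. It was higher with overexpression and lower with knockdown, without overlap, by 0.26 (SE 0.071, adjusted p = 0.00813) and -0.49 (SE 0.071, adjusted p = 0.000128), on 157 to 345 reads a library. Lpin2 was lower in both (-0.18 (SE 0.055, adjusted p = 0.0156) and -0.17 (SE 0.055, adjusted p = 0.025)). Its overexpression call was lost without empty vector replicate 2 (adjusted p = 0.0674) and its knockdown call without scrambled replicate 1 or 2 or Foxp1 shRNA replicate 1 (0.0682 to 0.105), with no filter on low values or with quantile normalization (0.0629 and 0.0853).

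Of the 4 genes that supply or handle glycerol, 2 fell and 1 rose with overexpression, and 3 rose and 1 fell with knockdown. Over all genes, 20.3% fell and 31.0% rose with overexpression, and 18.7% rose and 31.0% fell with knockdown. Summed over the 4 genes, the level was 906 ± 5.5 RPKM with empty vector and 700 ± 25 with overexpression. With scrambled and Foxp1 shRNA it was 342 ± 11 and 484 ± 5.5 RPKM, nearly all of each sum being Gpd1. Pck1 (chr2:173153048-173159273), the enzyme of glyceroneogenesis, rose more than any other of the 36 genes. Its libraries stood at 1.999, 2.11 and 1.88 RPKM with empty vector, 10.2, 11.01 and 9.21 with overexpression, 3.29, 3.42 and 3.26 with scrambled shRNA and 2.82, 2.83 and 2.88 with Foxp1 shRNA. The lowest overexpressing library was more than 4 times the highest empty vector one. The difference was 1.89 (SE 0.054, adjusted p = 5.15e-11) with overexpression, a 5.08-fold rise in mean RPKM, and -0.17 (SE 0.054, adjusted p = 0.0204) with knockdown, where the groups did not overlap either. The knockdown call on Pck1 was lost without scrambled replicate 2 or Foxp1 shRNA replicate 1 (adjusted p 0.0536 to 0.0686), with no filter on low values or with quantile normalization (0.0521 and 0.0537).

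Aqp7 (chr4:41033074-41048139), the channel through which fat cells release glycerol, fell more than any other. It stood at 9.45, 9.08 and 8.74 RPKM with empty vector, 2.61, 2.897 and 2.93 with overexpression, 3.08, 3.28 and 3.47 with scrambled shRNA and 5.83, 5.84 and 6.55 with Foxp1 shRNA. Every overexpressing library was below every empty vector library and every Foxp1 shRNA library above every scrambled one. Overexpression left 0.309 of the empty vector mean, a difference of -1.41 (SE 0.054, adjusted p = 7.52e-10), and the Foxp1 shRNA mean was 1.85 times the scrambled one, a difference of 0.73 (SE 0.054, adjusted p = 1.02e-06). The difference between the responses was -2.13 (SE 0.077, adjusted p = 6.19e-10) for Aqp7 and 2.06 (SE 0.076, adjusted p = 7.67e-10) for Pck1. Gpd1 (chr15:99717515-99725005), which makes glycerol 3-phosphate from a glycolytic intermediate, was over 100-fold more abundant than Gk and stood at 897, 886 and 895 RPKM with empty vector, 656, 703 and 696 with overexpression, 336, 344 and 322 with scrambled shRNA and 466, 473 and 477 with Foxp1 shRNA. It was lower with overexpression and higher with knockdown, without overlap, by -0.38 (SE 0.04, adjusted p = 6.23e-06) and 0.50 (SE 0.04, adjusted p = 1.83e-06). Of its exon bases, 13.0% are shared with an antisense gene. Gk, the kinase that reuses free glycerol, was low, at 1.93 ± 0.17 RPKM with empty vector and 2.18 ± 0.16 with overexpression (0.12 (SE 0.058, adjusted p = 0.113)), and rose from 1.92 ± 0.071 to 2.78 ± 0.22 with knockdown (0.37 (SE 0.058, adjusted p = 0.000238)).

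Of the 6 tested genes of uptake, 4 fell and 2 rose with overexpression, and 4 rose and none fell with knockdown. Of all genes, 20.3% fell and 31.0% rose with overexpression and 18.7% rose and 31.0% fell with knockdown. Lpl (chr8:68880491-68907448), the secreted lipase that frees fatty acids from lipoproteins, stood at 1378, 1463 and 1414 RPKM with empty vector, 839, 870.3 and 830.4 with overexpression, 1068, 967 and 1042 with scrambled shRNA and 1073, 1098 and 1095 with Foxp1 shRNA. Overexpressing libraries were all below the empty vector ones, a fall of 0.74 on the log2 scale (SE 0.046, adjusted p = 4.8e-08). The knockdown difference, 0.087 (SE 0.046, adjusted p = 0.137), was not called, but passed after median-ratio scaling or quantile normalization (adjusted p 0.0468 and 0.015). Cd36 (chr5:17781690-17888801), the fatty acid translocase, stood at 679, 672 and 675 RPKM with empty vector, 465, 453 and 477 with overexpression, 404, 377 and 398 with scrambled shRNA and 551, 550.4 and 527 with Foxp1 shRNA. It was lower with overexpression and higher with knockdown, without overlap, by -0.54 (SE 0.04, adjusted p = 2.34e-07) and 0.47 (SE 0.04, adjusted p = 2.85e-06), and kept both calls under every filter, scaling and test tried and without any 1 library.

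The fatty acid binding proteins moved apart with overexpression. Fabp4, the fat cell's main one, stood at 1096, 1035 and 1037 RPKM with empty vector, 959, 914 and 793 with overexpression, 1627, 1506 and 1607 with scrambled shRNA and 1852, 1783 and 1865 with Foxp1 shRNA. It was lower with overexpression and higher with knockdown, by -0.25 (SE 0.065, adjusted p = 0.00621) and 0.22 (SE 0.065, adjusted p = 0.0156). With quantile normalization neither call held (adjusted p 0.597 and 0.31), and the knockdown call was also lost without scrambled replicate 2 or Foxp1 shRNA replicate 3 (0.0503 to 0.0659), as TPM and with no filter on low values (0.0638 and 0.0946). Fabp5 rose with overexpression, from 209 ± 9.7 to 298 ± 47 RPKM (0.50 (SE 0.088, adjusted p = 0.000481)), and gave -0.073 (SE 0.088, adjusted p = 0.518) with knockdown.

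Of the fatty acid transport proteins, Slc27a1 was higher in both comparisons, from 23.6 ± 0.75 to 31.4 ± 2.7 RPKM (0.39 (SE 0.071, adjusted p = 0.000561)) and from 6.44 ± 0.20 to 8.61 ± 0.96 (0.37 (SE 0.071, adjusted p = 0.00113)). Slc27a4 stood at 22.3, 22.5 and 23.02 RPKM with empty vector, 20.9, 21.96 and 18.8 with overexpression, 24.03, 24.9 and 23.3 with scrambled shRNA and 25.7, 27.2 and 27.6 with Foxp1 shRNA. It was lower with overexpression and higher with knockdown without overlap, but both calls were near the threshold (-0.13 (SE 0.052, adjusted p = 0.0471) and 0.15 (SE 0.052, adjusted p = 0.0287)). Its overexpression call was lost when any 1 library was left out (adjusted p 0.0539 to 0.153), except overexpression replicate 2 and Foxp1 shRNA replicate 1, and in 4 other settings (0.0535 to 0.099). Its knockdown call was lost without scrambled replicate 1 or 3 or Foxp1 shRNA replicate 2 or 3 (0.0694 to 0.0957), with no filter on low values or as TPM (0.0679 and 0.192). Summed over the 7 uptake genes, the level was 3405 ± 31 RPKM with empty vector, 2550 ± 136 with overexpression, 3366 ± 129 with scrambled shRNA and 3821 ± 43 with Foxp1 shRNA.

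Because RPKM is per length, isoforms can be set side by side as shares of their family's RPKM. Acacb made up 18.4% ± 0.68 of acetyl-CoA carboxylase RNA with empty vector, 41.3% ± 1.3 with overexpression, 26.7% ± 1.2 with scrambled shRNA and 17.9% ± 0.83 with Foxp1 shRNA (SD, n = 3 each). The family's sum was 19.7 ± 0.77 RPKM with empty vector and 21.8 ± 2.5 with overexpression, so the makeup moved more than the sum. Dgat2 was 71.1% ± 1.2 of the Dgat pair with empty vector, 79.6% ± 0.92 with overexpression, 74.2% ± 0.19 with scrambled shRNA and 65.7% ± 1.3 with Foxp1 shRNA. Fabp5 was 16.5% ± 0.86 of the Fabp4 and Fabp5 sum with empty vector and 25.02% ± 1.3 with overexpression, against 17.6% ± 0.76 and 14.9% ± 0.25 in the shRNA groups. Slc27a1 was 51.04% ± 0.41 of the sum of Slc27a1 and Slc27a4 with empty vector but 21.1% ± 0.81 with scrambled shRNA, a difference between the controls larger than the change to 60.4% ± 0.82 with overexpression or 24.2% ± 1.8 with Foxp1 shRNA. Within the GPATs, Gpat4 was 42.8% ± 0.56 with empty vector and 38% ± 0.85 with overexpression while the family's sum fell. Gpam went from 33.3% ± 0.37 to 39.9% ± 1.3 and Gpat3 from 23.95% ± 0.76 to 22.1% ± 0.54 between the same groups. These shares are descriptions, with no test.

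**Figure D4:**
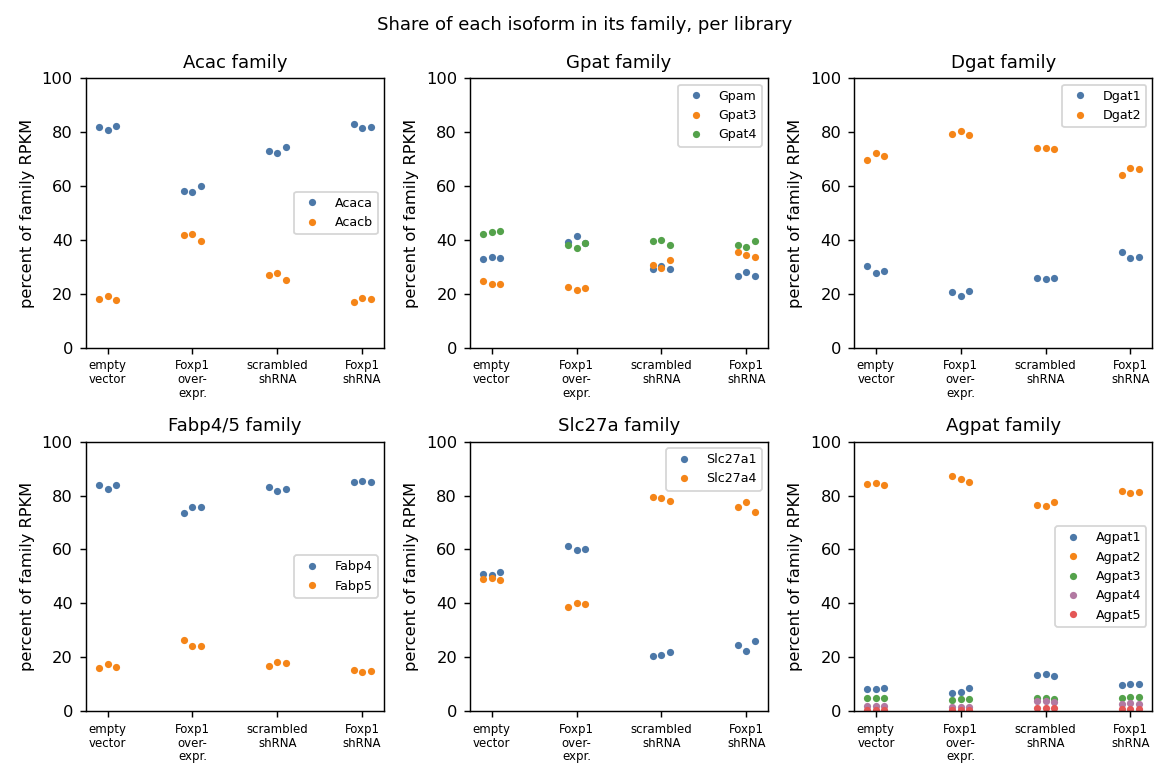
Share of each isoform in the summed RPKM of its family, in percent, with 1 point per library in each of the 4 groups. Acacb rises from 18.4% to 41.3% of its family between empty vector and overexpression, and the Dgat pair shifts toward Dgat2 with overexpression and toward Dgat1 with Foxp1 shRNA.

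Of 18 listed regulators, 17 were tested: 3 rose and 6 fell with overexpression, and 2 rose and 6 fell with knockdown. The numbers called in either direction, 9 and 8 of 17, are near the shares of all genes called, 51.4% and 49.7%. By direction, 31.0% of all genes were higher and 20.3% lower with overexpression, and 18.7% higher and 31.0% lower with knockdown. Srebf1, which encodes SREBP-1, stood at 30.8, 34.4 and 33.5 RPKM with empty vector, 41.2, 44.5 and 34.04 with overexpression, 21.7, 21.9 and 20.7 with scrambled shRNA and 19.3, 21.6 and 21.6 with Foxp1 shRNA. Groups overlapped in both comparisons, and Srebf1 passed as higher only with overexpression (0.26 (SE 0.082, adjusted p = 0.0176); knockdown -0.043 (SE 0.082, adjusted p = 0.69)). That call was lost without empty vector replicate 1 or overexpression replicate 1 or 2 (adjusted p 0.0561 to 0.0794), and in 3 other settings, TPM among them (0.0538 to 0.112). Insig1, which holds SREBP in the endoplasmic reticulum and is itself a SREBP target, was lower in both (-0.75 (SE 0.044, adjusted p = 2.57e-08) and -0.35 (SE 0.044, adjusted p = 4.42e-05)). Nr1h3, the oxysterol receptor LXR-alpha that drives Srebf1, was lower with overexpression and higher with knockdown, by -0.45 (SE 0.062, adjusted p = 6.29e-05) and 0.48 (SE 0.062, adjusted p = 5.52e-05). The related gene Nr1h2 was lower with knockdown (-0.26 (SE 0.045, adjusted p = 0.000458)), as was the E-box factor Usf2 (-0.28 (SE 0.043, adjusted p = 0.000186)). Prkaa1, a catalytic subunit of AMP-activated kinase, was lower with overexpression (-0.65 (SE 0.044, adjusted p = 1.07e-07)).

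The master regulators of fat cell differentiation, Pparg and Cebpa, were lower in both comparisons. Pparg went from 122 ± 0.94 to 98.77 ± 3.4 RPKM with overexpression (-0.31 (SE 0.038, adjusted p = 2.69e-05)) and from 88.7 ± 2.5 to 82.1 ± 2.7 with knockdown (-0.11 (SE 0.038, adjusted p = 0.0302)). The knockdown call on Pparg was lost without scrambled replicate 1 or 2 or Foxp1 shRNA replicate 1 or 3 (adjusted p 0.0592 to 0.125) and with median-ratio scaling (0.122). Cebpa changed by -0.54 (SE 0.044, adjusted p = 5.69e-07) with overexpression and -0.24 (SE 0.044, adjusted p = 0.000646) with knockdown. Adipoq changed by -2.15 (SE 0.048, adjusted p = 6.85e-12) and 0.64 (SE 0.048, adjusted p = 1.04e-06).

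Among 16 partners of synthesis and esterification, 13 were tested: 2 rose and 8 fell with overexpression, and 4 rose and 4 fell with knockdown, beside 31.0% higher and 20.3% lower of all genes with overexpression and 18.7% higher and 31.0% lower with knockdown. Scd1, the desaturase that makes oleate, stood at 5688, 6099 and 5832 RPKM with empty vector, 2638, 2700.0 and 2678 with overexpression, 3193, 2944 and 3011 with scrambled shRNA and 3696, 4109 and 3938 with Foxp1 shRNA. Its overexpressing libraries were all below the empty vector ones (-1.14 (SE 0.055, adjusted p = 4.63e-09)), and its Foxp1 shRNA libraries all above the scrambled ones (0.36 (SE 0.055, adjusted p = 0.000191)). With quantile normalization the knockdown difference of Scd1 was -0.095 and was not called (adjusted p = 0.373), nor was it with no filter on low values (0.36, adjusted p = 0.0501). Elovl6, the elongase that follows Fasn, was higher in both comparisons, by 0.54 (SE 0.045, adjusted p = 6.77e-07) and 0.45 (SE 0.045, adjusted p = 8.75e-06). Acss3, a mitochondrial acyl-CoA synthetase, is 1 of the 8 and stood at 1.61 ± 0.11 RPKM with empty vector and 0.176 ± 0.025 with overexpression. It reached 1 RPKM only with empty vector and stayed at or under 0.707 in all other libraries, so it entered the test through the group in which it is high and its call is no support for a fall. Bscl2, which encodes seipin of the droplet neck, was lower in both (-0.42 (SE 0.038, adjusted p = 1.61e-06) and -0.29 (SE 0.038, adjusted p = 6.76e-05)), and Fitm2, a droplet-forming protein, was higher with knockdown (0.46 (SE 0.039, adjusted p = 3e-06)).

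Of 14 partners of uptake and glycerol handling, 7 were tested. With overexpression 2 rose and 1 fell, beside 31.0% higher and 20.3% lower of all genes. The 1 that fell was Pck2, which is not a gene of uptake. With knockdown 1 rose and 4 fell, beside 18.7% higher and 31.0% lower of all genes. Angptl8, an insulin-induced protein that acts with its relatives to block Lpl, rose from 0.792, 1.29 and 1.02 RPKM with empty vector to 8.303, 8.998 and 6.596 with overexpression (2.14 (SE 0.13, adjusted p = 4.75e-08)), without overlap. Its knockdown values, 0.636, 1.12 and 1.13 against 0.3699, 0.704 and 0.615, overlapped (-0.32 (SE 0.13, adjusted p = 0.0613)). Angptl4, an inhibitor of Lpl, stood at 54.2 ± 2.7 RPKM with scrambled and 94.6 ± 4.7 with Foxp1 shRNA (0.79 (SE 0.08, adjusted p = 9.06e-06)). Vldlr, a receptor for triglyceride-rich particles, was higher with overexpression and lower with knockdown, by 0.59 (SE 0.06, adjusted p = 4.72e-06) and -0.58 (SE 0.06, adjusted p = 1.12e-05). Pck2, the mitochondrial counterpart of Pck1, was lower with overexpression (-0.60 (SE 0.06, adjusted p = 3.66e-06)), in the direction opposite to Pck1. Sel1l, needed for Lpl to leave the endoplasmic reticulum (-0.29 (SE 0.052, adjusted p = 0.000655)), and Slc27a3 (-0.31 (SE 0.068, adjusted p = 0.00266)) were lower with knockdown.

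The 2 kinds of control differed in most of these genes, which bears on every level set across them. Scrambled shRNA against empty vector gave 12 of 36 genes as higher and 18 as lower, against 71.8% of all genes called, 44.8% as higher and 27.0% as lower. All-gene medians of this comparison were 0.089 as deposited, 0.16 as TPM and 0.021 after median-ratio scaling, and with quantile normalization the whole-matrix split was 4053 higher and 3880 lower in place of 5037 and 3033. Slc27a1 (-1.72 (SE 0.071, adjusted p = 7.17e-10)), Gpd1 (-1.42 (SE 0.04, adjusted p = 3.32e-11)), Thrsp (-1.29 (SE 0.047, adjusted p = 2.92e-10)), Aqp7 (-1.24 (SE 0.054, adjusted p = 1.2e-09)) and Acsl5 (-1.002 (SE 0.044, adjusted p = 1.28e-09)) were more than 1 log2 unit lower with scrambled shRNA. These control differences were larger than the response to knockdown of the same genes. Fabp5 (0.69 (SE 0.088, adjusted p = 1.7e-05)), Agpat5 (0.61 (SE 0.038, adjusted p = 2.34e-08)), Fabp4 (0.58 (SE 0.065, adjusted p = 5.05e-06)) and Agpat4 (0.58 (SE 0.04, adjusted p = 5.73e-08)) were among those higher. Mitochondrial reads made up 8.61% to 9.35% of the empty vector libraries and 4.80% to 5.69% of the scrambled ones. Rescaled to the sum outside the mitochondrial genome, the median of all genes was 0.033, the whole-matrix split 4317 higher and 3624 lower, and that of the 36 genes 10 higher and 19 lower. The call on Slc25a1 was lost there (adjusted p = 0.37), and also with median-ratio scaling and quantile normalization (up to 0.839).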

How the data were processed

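RNA-seq values of 12 libraries were used. The deposited matrix gives RPKM as computed by the authors, divided by 1000, and was multiplied by 1000 here. HISAT2 2.1.0 and featureCounts (Subread 1.5.3) are named in the submitters' processing notes, and their settings are not given in the sources used here. GENCODE M21 (GRCm38) gave symbols, positions and exon lengths for 28896 of 28948 identifiers. Value times exon length came out as whole reads (within 0.05) for 98.8% to 98.9% of values per library, which gave the depths and a voom alternative.

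The filter kept the 11245 genes that reached 1 RPKM in 3 or more libraries. They were compared with limma (version 3.58.1, R 4.3.3) on log2(RPKM + 1), in a single model of 4 groups with a variance trend. Adjusted p is Benjamini-Hochberg over all genes tested, with a threshold of 0.05. This scale understates changes of low genes. The test was also run on simulated data with known changes.

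The genes, lists and rules were chosen with earlier results of these data known. Genes were given in full where called in overexpression or knockdown with an absolute difference of at least 0.5, or called in opposite directions. Fasn was given in full outside this rule, chosen after its values were seen. The others have means, ranges or counts. From each list of regulators and partners, up to 4 per comparison with the smallest adjusted p were named, with Srebf1, Nr1h3, Insig1 and Pparg always. Python 3.11.15 with pandas 2.3.3, numpy 2.4.6 and matplotlib 3.10.9 made the tables and figures. Alternatives were other pseudocounts, filters, scalings, variance models and thresholds, a replicate block, voom and leaving out each library.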

Additional observations from a re-analysis of the deposited data

How the results depend on the processing

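In overexpression 23 of the 29 calls among the 36 genes held under every pseudocount, filter, scaling, variance model and test tried and without any 1 library, as did 19 of 26 in knockdown, 23 of 27 for the difference of the responses and 25 of 30 between the controls. Without each library in turn, the number of genes called among the 36 ranged from 25 to 30, 21 to 27, 25 to 28 and 28 to 31 in that order, and over all genes from 4965 to 6221, 4758 to 6181, 5696 to 6678 and 7542 to 8400. Requiring also an absolute log2 difference of at least 0.5 left 14, 3, 16 and 17 of the 36 genes, and 1280, 624, 2167 and 2564 of all genes.

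Whether replicate numbers pair the libraries is not given in the sources used here. Deviations of same-numbered libraries correlated at -0.0132, 0.118 and 0.0806 in overexpression and at -0.0727, 0.0492 and -0.0595 in knockdown. Between libraries of different number the values ran from -0.141 to 0.0717 in overexpression and from -0.189 to 0.237 in knockdown. With the replicate block, 30, 28, 28 and 30 of the 36 genes were called, beside 29, 26, 27 and 30 without it.

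Values that changed sign were small and, but for Scd1, not called. With median-ratio scaling they were 0.022 for Slc25a1 and 0.019 for Acsl3 in knockdown, and with quantile normalization 0.015 for Acsl3, -0.095 for Scd1 and 0.0018 for Srebf1. The difference of the responses of Slc27a1 was -0.0013 with a pseudocount of 0.1, -0.011 as TPM, -0.041 with median-ratio scaling, -0.033 with quantile normalization and -0.0048 with voom. Without 1 library at a time it ranged from -0.028 to 0.11, that of Lpin2 from -0.057 to 0.027, that of Agpat4 from -0.057 to 0.0054, and Srebf1 in knockdown from -0.069 to 0.0088. The causes were not tested. Depth did not limit the abundant genes; in their lowest library Lpin3, Mlxipl and Pck1 had 157, 205 and 227 reads, and in its highest Gk had 879 and Aqp7 1014, while Gpihbp1 had 4 to 44.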
